A study of Rattus norvegicus with 2 samples.

Results

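Translation initiation and elongation factor genes were taken as the genes whose symbol in the deposited gene table starts with Eif or Eef, 61 of 25399 genes in all. Of these, 56 had at least 10 counts per 1000000 unique molecular identifiers (CPM) in either of 2 single-cell RNA libraries, as did 6337 genes of the whole table. The libraries came from 1 culture each of cortical neural stem cells that a supplier had prepared from Sprague-Dawley rats at embryonic day 14.5. One culture was exposed for 48 h to 30 µM ZD7288, which blocks the HCN channels that carry the hyperpolarisation-activated current, dissolved in dimethyl sulfoxide (DMSO) at 0.2%, and the other to the same DMSO alone (vehicle). Both cultures were kept with the growth factor FGF2, which holds such cells undifferentiated, and both had their medium replaced at 24 h. No genetic change was labelled in either culture.

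Initiation factors bring the initiator tRNA and the small ribosomal subunit to an mRNA, and elongation factors bring each further amino acid and move the ribosome along. The GTPase eIF2 carries the initiator tRNA and is recharged by its exchange factor eIF2B. Phosphorylation of eIF2 slows most initiation and favours the translation of a few mRNAs, among them that of the transcription factor ATF4. The cap-binding protein eIF4E joins the scaffold eIF4G and the helicase eIF4A at the mRNA's cap. The eIF4E-binding proteins block that step until the kinase complex mTORC1 phosphorylates them. Neural stem cells depend on these controls for growth and division.

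The ZD7288 library held 3135 kept cells of 3849 barcodes with 73681950 UMIs, and the vehicle library 732 of 842 barcodes with 15611454 UMIs. The median cell had 23001 UMIs and 4.70% mitochondrially encoded UMIs in the ZD7288 library, against 17119 UMIs and 5.84% in the vehicle library. A total of 3 barcode sequences occurred in both libraries. Of 12 neural stem cell markers, 11 had at least 10 CPM, and their summed level was 7573 CPM with ZD7288 and 7650 CPM with vehicle. Most of that sum was Vim, with 4690 CPM with ZD7288 and 4204 CPM with vehicle, and Fabp7, with 2023 CPM and 2647 CPM. Single markers differed both ways, with ratios of 0.417 for Notch1, 0.566 for Hes1, 0.568 for Sox9, 1.58 for Slc1a3 and 1.94 for Msi1. Oligodendrocyte lineage markers summed to 1235 CPM with ZD7288 and 2272 CPM with vehicle, with 3 of 9 reaching 10 CPM. Neuron markers summed to 188 CPM with ZD7288 and 171 CPM with vehicle, and astrocyte markers to 82.2 CPM with ZD7288 and 70.0 CPM with vehicle. Of the neuron markers, Map2 had a ratio of 0.674, Gap43 of 1.52 and Tubb3 of 2.94. Microglia and blood markers summed to 1.06 CPM with ZD7288 and 1.02 CPM with vehicle, and endothelial markers to 0.380 CPM with ZD7288 and 0.0641 CPM with vehicle, with Ptprc, Cx3cr1 and Cdh5 at 0 in both. Pericyte and fibroblast markers summed to 16.3 CPM with ZD7288 and 0.705 CPM with vehicle. What part these differences in markers, depth and mitochondrial share have in the values below was not tested. With 1 library per condition there was no replicate and no test, and every interval below covers counting error only at 95%. A lower level can also not be told apart from fewer cells that hold the mRNA.

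The factor genes were shifted upward in the ZD7288 library. A gene was called higher with a log2 ratio of 0.32 or more and lower with one of -0.32 or less, and 25 of the 56 members (44.6%) were higher with ZD7288, against 26.0% of all 6337 genes. Only 3 members (5.36%) were lower, against 16.0% of all genes. The median log2 ratio of ZD7288 to vehicle was 0.29 over the members, with a range of -0.52 to 1.69, and 0.07 over all genes. A ratio above 1 was seen for 43 members (76.8%) and for 57.3% of all genes. Together the members summed to 23767 CPM with ZD7288 and 19049 CPM with vehicle, a ratio of 1.248 (1.243 to 1.253). At 1.5-fold, the 7 members above it (12.5%) stood near the 10.1% of all genes, and no member was as far below, against 6.60% of all genes. A ratio of at least 2 was seen for 4 members, Eif4ebp1, Eif2b3, Eif2s2 and Eif3c, which is 7.14% of the members against 2.95% of all genes. The shift was thus broad and small, with a few members far above it.

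**Figure D1:**
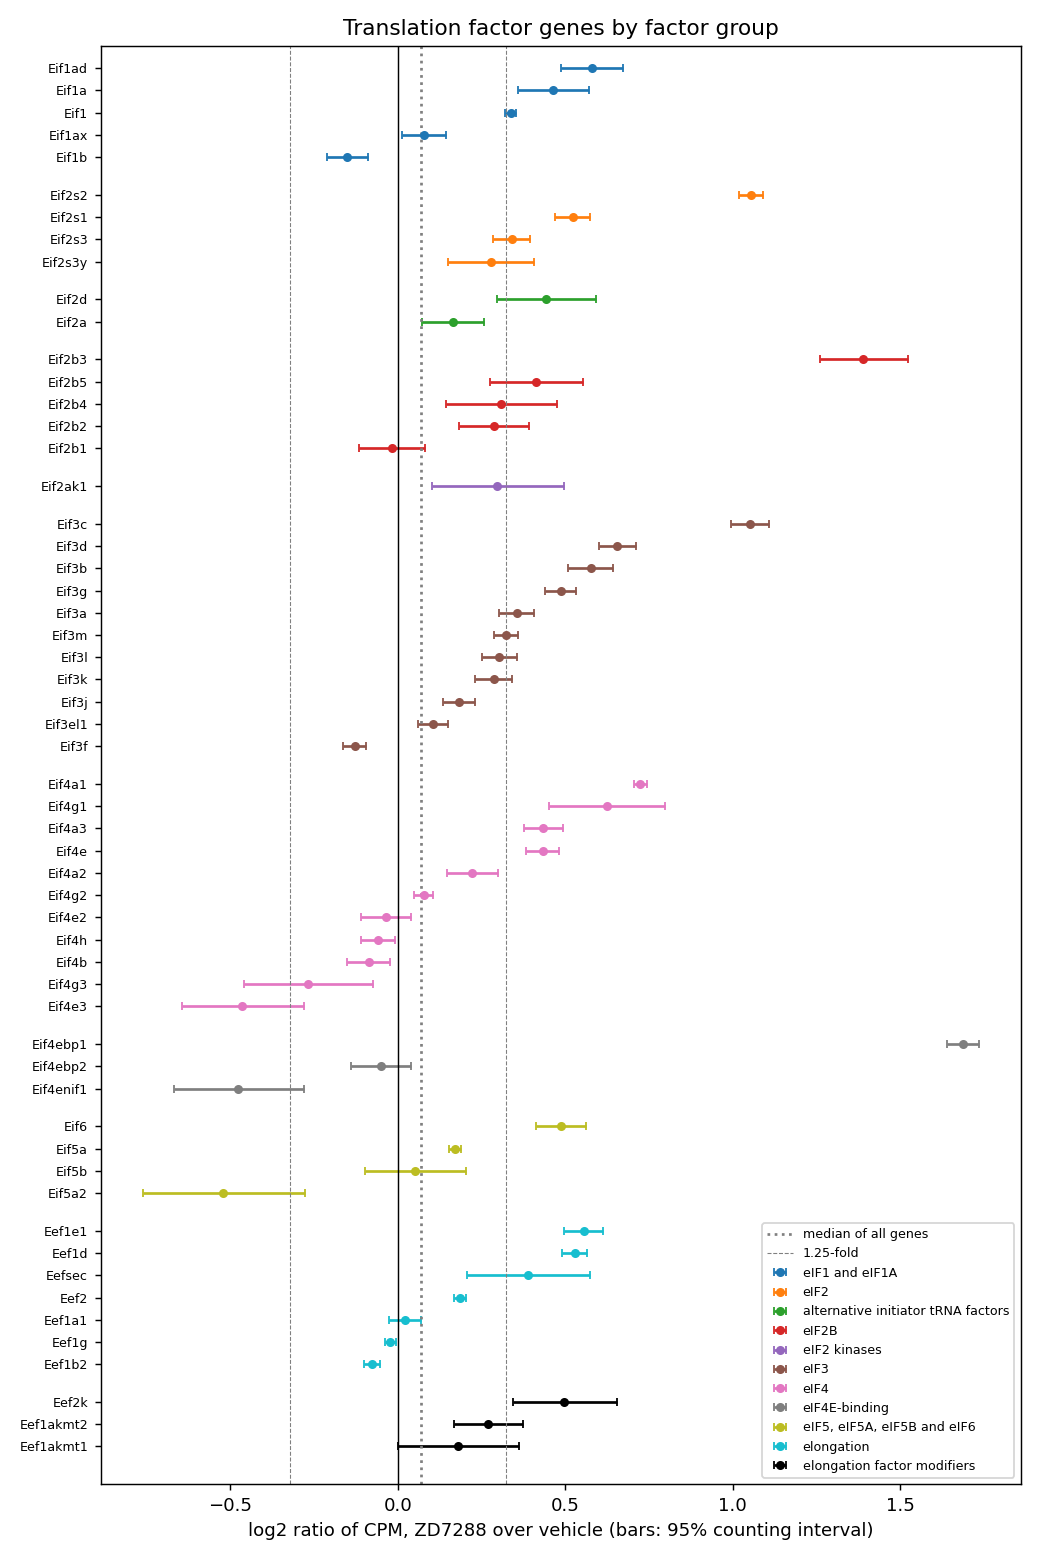
Log2 ratio of ZD7288 to vehicle CPM for each of the 56 members of at least 10 CPM, ordered by factor group, with exact 95% intervals for counting error. Dashed lines mark the threshold of 0.32 on either side, and Eif4ebp1 stands farthest right at 1.69 and Eif5a2 farthest left at -0.52.

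**Figure D2:**
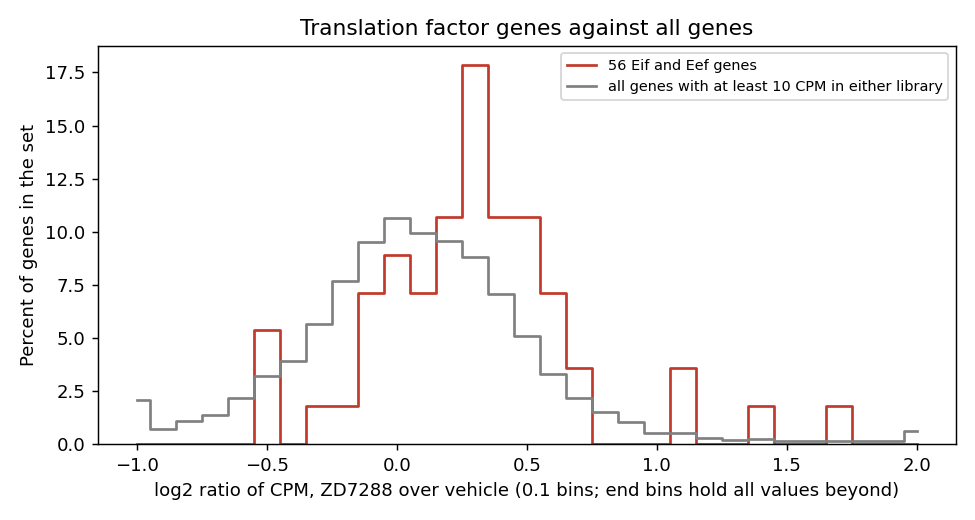
Share of genes in each bin of log2 ratio of ZD7288 to vehicle CPM, for the 56 members and for all 6337 genes of at least 10 CPM. The median is 0.29 over the members and 0.07 over all genes.

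The largest difference lay among the proteins that hold eIF4E back. Eif4ebp1, the eIF4E-binding protein that mTORC1 phosphorylates, had 780.8 CPM with ZD7288 and 242.6 CPM with vehicle, a ratio of 3.22 (3.11 to 3.33). Its relative Eif4ebp2, with the same function, had 76.0 CPM with ZD7288 and 78.7 CPM with vehicle, a ratio of 0.966 (0.908 to 1.03). The paralogs therefore parted, with Eif4ebp1 higher and the interval of Eif4ebp2 spanning 1. Eif4enif1, the transporter that takes eIF4E into the nucleus and represses bound mRNAs, had 13.03 CPM with ZD7288 and 18.1 CPM with vehicle, 1.39-fold lower (1.21 to 1.59). Summed over these 3 genes the level was 870 CPM with ZD7288 and 339 CPM with vehicle, a ratio of 2.56 that rests on Eif4ebp1. Their median log2 ratio was -0.05.

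Eif4e, which encodes the cap-binding protein itself, had 338.4 CPM with ZD7288 and 250.6 CPM with vehicle, a ratio of 1.35 (1.31 to 1.40). The number of Eif4ebp1 UMIs per Eif4e UMI was 2.31 (2.27 to 2.34) in the ZD7288 library, against 0.968 (0.925 to 1.01) in the vehicle library. Because the same mRNAs are counted in both libraries, this balance does not depend on how the totals were scaled, and it was 2.38 times as large with ZD7288. Eif4ebp1 UMIs per Eif4ebp2 UMI numbered 10.3 with ZD7288 and 3.08 with vehicle. When each cell was thinned to 2000 UMIs, which 2956 ZD7288 cells and 724 vehicle cells reached, Eif4ebp1 averaged 1.57 ± 1.35 UMIs per cell with ZD7288 and 0.461 ± 0.688 with vehicle (SD over cells, which are not replicates).

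**Figure D3:**
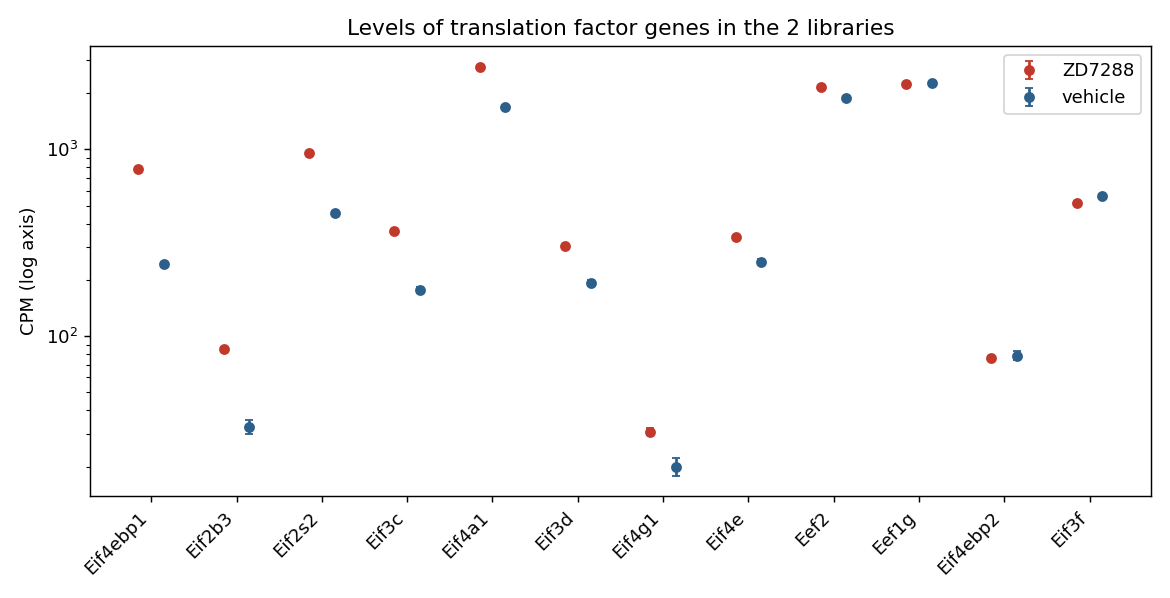
CPM of selected members in the ZD7288 and the vehicle library, on a log axis, with exact Poisson 95% intervals for counting error. Eif4ebp1 is at 780.8 CPM with ZD7288 and 242.6 CPM with vehicle, while Eef1g is at 2234 CPM with ZD7288 and 2269 CPM with vehicle.

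Among the cap-binding, scaffold and helicase factors, 4 of 11 were higher and 1 lower, against 26.0% and 16.0% of all genes. Their median log2 ratio was 0.08, close to that of all genes. Eif4a1, a helicase that unwinds the leader of the mRNA, had 2771 CPM with ZD7288 and 1678 CPM with vehicle, a ratio of 1.65 (1.63 to 1.67). Its paralog Eif4a2 had 122.2 CPM with ZD7288 and 104.8 CPM with vehicle, a ratio of 1.17 (1.11 to 1.23). Eif4a1 UMIs per Eif4a2 UMI numbered 22.7 with ZD7288 and 16.01 with vehicle, so the balance moved toward Eif4a1. Eif4a3, the helicase of the exon junction complex, which marks spliced mRNA, had 247.7 CPM with ZD7288 and 183.2 CPM with vehicle, but its ratio was 0.965 in the stricter cell set described last. Eif4g1, the main scaffold, had 30.8 CPM with ZD7288 and 19.99 CPM with vehicle, a ratio of 1.54 (1.37 to 1.74). The scaffold paralog Eif4g3 had 14.96 CPM with ZD7288 and 18.0 CPM with vehicle, a ratio of 0.831 (0.728 to 0.951). Both scaffolds thus differed in opposite directions, Eif4g3 by too little to be called lower.

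The remaining members of the cap complex were flat or lower. Eif4g2, a scaffold relative that lacks the eIF4E-binding site, had 805 CPM with ZD7288 and 763 CPM with vehicle. The helicase cofactors lay slightly under 1, Eif4b with 145.4 CPM with ZD7288 and 154.4 CPM with vehicle, and Eif4h with 237.7 CPM with ZD7288 and 247.8 CPM with vehicle. The ratios of these 3 genes ran from 0.942 to 1.05. Eif4e2, a cap-binding relative linked to repression, had 110.2 CPM with ZD7288 and 112.9 CPM with vehicle. Eif4e3, another cap-binding relative, had 14.9 CPM with ZD7288 and 20.5 CPM with vehicle, 1.38-fold lower (1.21 to 1.56), a difference that was absent in cells thinned to 5000 UMIs, where its log2 ratio was 0.028. So Eif4e was higher while neither of its paralogs was.

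The subunits of eIF2 were higher as a group. All 4 genes had ratios above 1 and 3 were called higher, against 26.0% of all genes, with a median log2 ratio of 0.43. Their levels summed to 1558 CPM with ZD7288 and 909 CPM with vehicle, a ratio of 1.71 (1.68 to 1.74) to which Eif2s2 gave the largest part. Eif2s2, the beta subunit, had 952.9 CPM with ZD7288 and 459.0 CPM with vehicle, a ratio of 2.08 (2.03 to 2.13). Eif2s1, the alpha subunit that the stress kinases phosphorylate, had 313.0 CPM with ZD7288 and 217.9 CPM with vehicle, a ratio of 1.44 (1.39 to 1.49). Eif2s3, the GTP-binding gamma subunit, had 247.5 CPM with ZD7288 and 195.6 CPM with vehicle, a ratio of 1.27 (1.22 to 1.32). It was called higher under 5 of the 9 other settings described last. The 3 subunits of 1 complex thus differed by unequal amounts, the beta subunit most. Eif2s2 UMIs per Eif2s1 UMI numbered 3.04 with ZD7288 and 2.11 with vehicle, and per Eif2s3 UMI 3.85 with ZD7288 and 2.35 with vehicle. Eif2s3y, the Y-linked copy of the gamma subunit gene, had 44.8 CPM with ZD7288 and 37.0 CPM with vehicle. It had UMIs in 33.6% of ZD7288 cells and 32.2% of vehicle cells.

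In eIF2B, the exchange factor, 1 subunit stood out. Eif2b3, the gamma subunit of its catalytic part, had 85.5 CPM with ZD7288 and 32.6 CPM with vehicle, a ratio of 2.62 (2.39 to 2.87). Eif2b5, the epsilon subunit that carries the exchange activity, had 42.2 CPM with ZD7288 and 31.7 CPM with vehicle, a ratio of 1.33 (1.21 to 1.47). The regulatory subunits differed less. Eif2b2 had 68.7 CPM with ZD7288 and 56.3 CPM with vehicle, Eif2b4 had 28.1 CPM with ZD7288 and 22.7 CPM with vehicle, and Eif2b1 had 63.6 CPM with ZD7288 and 64.4 CPM with vehicle. Eif2b3 UMIs per Eif2b1 UMI numbered 1.34 (1.29 to 1.40) with ZD7288 and 0.506 (0.454 to 0.563) with vehicle. The 5 genes summed to 288 CPM with ZD7288 and 208 CPM with vehicle, a ratio of 1.39 (1.34 to 1.44).

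Of the kinases that phosphorylate eIF2, Eif2ak1, the haem-regulated kinase, reached 10 CPM, with 19.5 CPM with ZD7288 and 15.9 CPM with vehicle, a ratio of 1.23 (1.07 to 1.41). Eif2ak1 was not called higher here or under any other setting, and its ratio was 1.006 in the stricter cell set described last. The kinase genes Eif2ak4 and Eif2ak2 were under 10 CPM in both libraries and so were not called. Eif2ak4 had a ratio of 0.787 (0.647 to 0.963), and Eif2ak2 of 0.986 with an interval that spanned 1. The kinase genes thus had no common direction. Factors that can deliver initiator tRNA without eIF2 were Eif2d, with 37.7 CPM with ZD7288 and 27.7 CPM with vehicle, and Eif2a, with 80.6 CPM with ZD7288 and 71.9 CPM with vehicle. Eif2d was called higher, with a ratio of 1.36 (1.23 to 1.51), and Eif2a was not, with a ratio of 1.12 (1.05 to 1.20).

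The genes of eIF3, the large scaffold on the small ribosomal subunit, leaned upward with 1 clear outlier. Of 11 genes, 6 were higher and none lower, against 26.0% and 16.0% of all genes, and the median log2 ratio was 0.32. Eif3m passed the threshold narrowly, with a ratio of 1.251. In the stricter cell set described last, Eif3a, Eif3b and Eif3m were not called higher, with ratios of 1.248, 1.249 and 1.09. Eif3c, Eif3d and Eif3g still were. Eif3c, a core subunit, had 366.7 CPM with ZD7288 and 176.9 CPM with vehicle, a ratio of 2.07 (1.99 to 2.16). Eif3f, a subunit of the same complex, had 514 CPM with ZD7288 and 562 CPM with vehicle, a ratio of 0.915 (0.894 to 0.936). Eif3c UMIs per Eif3f UMI were 0.713 with ZD7288 and 0.315 with vehicle, a balance 2.27 times as large with ZD7288. Eif3d, a subunit that can itself bind the cap of some mRNAs, had 303 CPM with ZD7288 and 192.5 CPM with vehicle, a ratio of 1.57 (1.52 to 1.64). The core subunit Eif3b had 191 CPM with ZD7288 and 128 CPM with vehicle, and the core subunit Eif3a had 283 CPM with ZD7288 and 221 CPM with vehicle. Eif3g had 386.8 CPM with ZD7288 and 276.1 CPM with vehicle, and Eif3m had 554 CPM with ZD7288 and 443 CPM with vehicle. The other 4 genes, Eif3j, Eif3k, Eif3l and Eif3el1, whose symbol RefSeq lists as a synonym of Eif3e, had ratios of 1.08 to 1.23.

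Promoters from RefSeq (build GRCr8, 250 bases before to 50 after each annotated start) were matched for 51 of the 56 members. Eif4ebp1, Eif4b, Eif4e3, Eef1d and Eif3el1 were not matched. The matched members with a ratio of at least 2 are shown because they lead the list, with capitals marking any match to TGATGNAAN, a form of the element that ATF4 binds with C/EBP partners. They lie at chr3:163855521-163855820 on the minus strand for Eif2s2, chr5:135728592-135728891 on the plus strand for Eif2b3 and chr1:190583018-190583317 on the minus strand for Eif3c, each written 5′ to 3′ along its gene.
Eif2s2: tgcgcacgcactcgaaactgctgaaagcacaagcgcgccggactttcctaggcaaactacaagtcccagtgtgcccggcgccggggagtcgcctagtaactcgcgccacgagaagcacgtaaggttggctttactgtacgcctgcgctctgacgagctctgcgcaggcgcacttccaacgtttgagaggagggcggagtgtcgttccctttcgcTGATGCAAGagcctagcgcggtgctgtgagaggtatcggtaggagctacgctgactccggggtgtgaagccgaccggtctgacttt
Eif2b3: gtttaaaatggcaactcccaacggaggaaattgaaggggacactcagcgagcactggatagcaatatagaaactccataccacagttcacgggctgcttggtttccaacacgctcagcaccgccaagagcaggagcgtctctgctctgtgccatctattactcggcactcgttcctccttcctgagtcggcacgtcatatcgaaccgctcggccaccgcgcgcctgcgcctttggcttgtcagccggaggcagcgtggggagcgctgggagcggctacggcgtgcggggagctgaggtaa
Eif3c: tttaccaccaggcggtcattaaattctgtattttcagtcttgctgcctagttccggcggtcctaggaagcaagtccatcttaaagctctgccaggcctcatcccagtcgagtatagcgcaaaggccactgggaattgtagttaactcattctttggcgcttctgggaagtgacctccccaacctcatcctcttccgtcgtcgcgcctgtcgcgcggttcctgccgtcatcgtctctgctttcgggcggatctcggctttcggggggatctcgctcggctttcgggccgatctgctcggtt

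Of these sequences Eif2s2 held a match, TGATGCAAG, starting 36 bases before the annotated start. Searched on both strands, 2 of the 51 members (3.92%) held a match, the other being Eif3g, against 3.97% of 33469 promoters. The share of members was that of promoters at large, and Eif2b3 and Eif3c held no match in this window.

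The factors eIF1 and eIF1A help find the start codon. Of 5 genes grouped under them by symbol, 3 were higher and none lower, and 1 of the 3 was Eif1ad. Over all genes the shares were 26.0% and 16.0%. Eif1 had 2817 CPM with ZD7288 and 2229 CPM with vehicle, a ratio of 1.264 (1.2496 to 1.278). In the stricter cell set described last the Eif1 ratio was 1.19, too low to be called higher. Eif1ad, which encodes a protein with an eIF1A-like domain and is grouped here by its symbol alone, had 105 CPM with ZD7288 and 70.3 CPM with vehicle. Its ratio was 1.49 (1.40 to 1.59). The eIF1 paralog Eif1b had 149.6 CPM with ZD7288 and 166.0 CPM with vehicle, a ratio of 0.901 (0.863 to 0.941), while Eif1a had a ratio of 1.38 and Eif1ax of 1.06. Eif6, which keeps the large ribosomal subunit from joining too early, had 150.9 CPM with ZD7288 and 107.6 CPM with vehicle, a ratio of 1.40 (1.33 to 1.48). Eif5b, the GTPase of subunit joining, had 29.2 CPM with ZD7288 and 28.2 CPM with vehicle. Eif5a, the hypusine-bearing factor that eases stalled elongation, had 2144 CPM with ZD7288 and 1903 CPM with vehicle, a ratio of 1.13 (1.11 to 1.14). Its paralog Eif5a2 had 8.25 CPM with ZD7288 and 11.9 CPM with vehicle, 1.44-fold lower (1.21 to 1.70). It was the 1 member that reached 10 CPM in a single library, so its place on the lower side was favoured by the floor. In cells thinned to 2000 UMIs its log2 ratio was 0.49, but only 12 vehicle and 69 ZD7288 cells then held a UMI of it. Over the depth classes described below, with all UMIs, its ratio ran from 0.644 to 0.762. The interval reached past 1 in all but the deepest class.

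Elongation factors had the smallest summed ratio of the factor groups, though not the smallest median. Over 7 genes of at least 10 CPM the median log2 ratio was 0.19, and their sum was 6585 CPM with ZD7288 and 6127 CPM with vehicle, a ratio of 1.07 (1.07 to 1.08). Eef1a1, the factor that delivers aminoacyl-tRNA, had 288.7 CPM with ZD7288 and 284.3 CPM with vehicle, a ratio of 1.02 (0.983 to 1.05). RefSeq lists 20 pseudogenes named after Eef1a1 and 16 named after Eef1g, so the levels of both genes and the sum are uncertain. Eef2, which moves the ribosome along the mRNA, had 2150 CPM with ZD7288 and 1891 CPM with vehicle, a ratio of 1.14 (1.12 to 1.15). The subunits of the exchange factor for Eef1a1 parted. Eef1d had 633.5 CPM with ZD7288 and 439.4 CPM with vehicle, a ratio of 1.44 (1.41 to 1.48). Eef1b2 had 993 CPM with ZD7288 and 1047 CPM with vehicle, and Eef1g had 2234 CPM with ZD7288 and 2269 CPM with vehicle. Eef1d UMIs per Eef1b2 UMI were 0.638 with ZD7288 and 0.420 with vehicle, so within 1 complex the delta subunit was higher and its partners were not. Eef1e1, a component of the multi-tRNA synthetase complex, had 261.7 CPM with ZD7288 and 178.1 CPM with vehicle, a ratio of 1.47 (1.41 to 1.53). Eefsec, which delivers selenocysteine, had 24.0 CPM with ZD7288 and 18.3 CPM with vehicle.

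Of the enzymes that modify elongation factors, Eef2k, the kinase that phosphorylates and slows Eef2, had 35.3 CPM with ZD7288 and 25.05 CPM with vehicle, a ratio of 1.41 (1.27 to 1.57). The lysine methyltransferase genes Eef1akmt1 and Eef1akmt2 had ratios of 1.13 and 1.21. The 5 members under 10 CPM in both libraries, named after their values were seen, were Eif2ak2, Eif2ak4, Eef2kmt, Eef1a2 and Eef1akmt3. They held 1213 UMIs with ZD7288 and 266 UMIs with vehicle in all. Eef1akmt3 had 0 UMIs in both, which allows up to 0.0407 CPM with ZD7288 and 0.192 CPM with vehicle. Eef1a2, the form known from neurons and muscle, had 2 UMIs with ZD7288 and 0 with vehicle.

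Many factor mRNAs that carry a pyrimidine run at their very start, the TOP mRNAs, are translated under mTORC1 control, and such starts were looked for after the values had been seen. The rule asked for at least 8 C or T, opening with C and within 20 bases of the annotated start, on either side of it. Such a run was found in 11 of 51 members (21.6%) and in 13.5% of 33469 promoters. The 40 bases around the start of 3 such members are shown, with the run in capitals, because they include both flat and higher genes.
Eef1b2: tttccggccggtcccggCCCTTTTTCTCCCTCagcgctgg
Eif3f: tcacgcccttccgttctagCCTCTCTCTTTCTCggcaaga
Eif2s3: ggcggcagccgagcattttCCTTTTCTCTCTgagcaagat

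They come from RefSeq windows at chr9:72073841-72074140 on the plus strand for Eef1b2, chr1:172368812-172369111 on the plus strand for Eif3f and chrX:62933650-62933949 on the minus strand for Eif2s3. The 11 members with a run had a median log2 ratio of 0.18, and the 40 without one had 0.32. This split follows the run rule alone and does not measure which mRNAs are TOP mRNAs. Eef1a1 and Eef2, each with a run of 7, were counted among the 40. Of the 11, 3 were called higher, a share near the 26.0% of all genes, and of the 40, 20 were. Members with a run ranged from -0.13 to 0.65 on the log2 scale, and none of the 3 matched members past 2-fold was among them. Some runs lay wholly before the annotated start and so outside the annotated mRNA. These were the runs of Eef1g, Eif2s3y, Eif3d and Eif3k, which opened at -20, -16, -16 and -14. Eif3d, at 0.65, was the top of that range.

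Cells were divided by their cell-cycle gene UMIs at 2000 UMIs per cell, to compare the libraries within ranges of such UMIs. Cells in the same range need not be at the same cycle stage. Single list genes differed between the libraries both ways, with ratios of 0.660 for Mki67, 0.825 for Hmgb2 and 1.27 for Cdk1. The list medians were -0.009 for S genes and -0.0008 for G2M genes on the log2 scale. With fewer than 10 such UMIs, 753 ZD7288 and 104 vehicle cells gave an Eif4ebp1 ratio of 3.55 (3.21 to 3.93). With more S than G2M gene UMIs, 390 ZD7288 and 95 vehicle cells gave 2.91 (2.63 to 3.23), and the other 1813 ZD7288 and 525 vehicle cells gave 3.20 (3.08 to 3.32). Eif4ebp1 was thus about 3-fold higher with ZD7288 in each range. Eif2s2 had ratios of 2.16, 1.78 and 2.12 in the same order, Eif3c of 2.52, 1.97 and 2.04, and Eif4a1 of 1.72, 1.47 and 1.67. Eif2b3 had 101 CPM with ZD7288 and 24.3 CPM with vehicle in the cells with few cycle UMIs, a ratio of 4.13 (3.04 to 5.75), and ratios of 2.39 and 2.38 in the other ranges. Eif3f and Eef1g lay between 0.861 and 1.03 throughout. Members called higher numbered 27, 19 and 27, against 32.2%, 25.9% and 27.1% of all genes, and 3 members were lower in each range, against 21.8%, 15.6% and 15.6% of all genes. The member median was 0.29, 0.22 and 0.30, against 0.09, 0.06 and 0.08 over all genes.

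**Figure D4:**
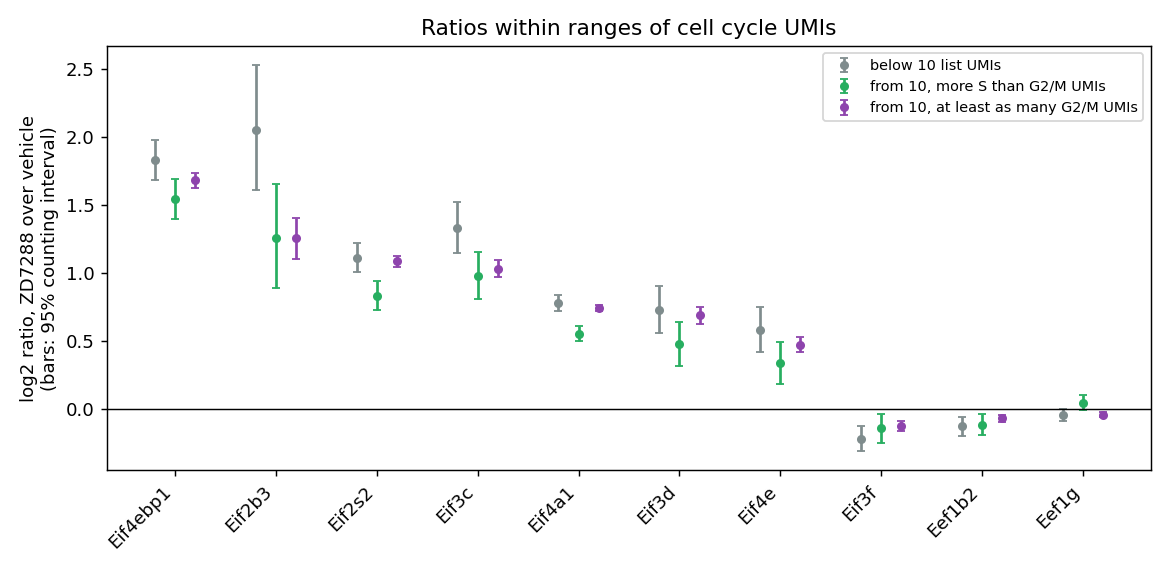
Log2 ratio of ZD7288 to vehicle CPM of selected members within 3 ranges of cell-cycle gene UMIs, with exact 95% intervals for counting error. Eif4ebp1 lies between 1.54 and 1.83 on this axis, and Eif3f and Eef1g lie near 0 in every range.

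Depth was handled in the same way, by splitting each library into 4 equal classes of cells from fewest to most UMIs. The Eif4ebp1 ratio was 3.44, 2.84, 3.31 and 3.27 from the shallowest to the deepest class, and the Eif2s2 ratio 2.18, 1.97, 2.03 and 2.10. Eif2b3 varied most, with 4.01 in the shallowest class and 2.36 to 2.75 in the others. The median over members was 0.26 to 0.30 in the 4 classes. Members called higher numbered 22, 24, 24 and 25, against 27.5%, 27.4%, 25.9% and 28.8% of all genes, and members called lower 3, 3, 1 and 3, against 17.6%, 16.1%, 17.8% and 18.3%. Apart from Eif2b3, these ratios were of like size in all 4 classes. The median ZD7288 cell was deeper than the median vehicle cell in each class.

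The ZD7288 cells were also ranked, a choice made after the values had been seen, by the UMIs of 23 genes known as ATF4 targets, none of them a member. The 739 cells with the most such UMIs had 12 to 28 of them at 2000 UMIs per cell, and the 739 with the fewest had 0 to 6. Eif4ebp1 had 948 CPM in the cells with the most and 541 CPM in those with the fewest, a ratio of 1.75 (1.71 to 1.80), and 772 CPM and 863 CPM in the classes between. Eif2b3 had 107 CPM in the cells with the most and 62.7 CPM in those with the fewest, a ratio of 1.70 (1.58 to 1.83). Eif2s2 had 1106 CPM in the cells with the most and 755 CPM in those with the fewest, and Eif3c had 428 CPM in the cells with the most and 296 CPM in those with the fewest, ratios of 1.46 and 1.45. The same 4 genes that passed 2-fold between the libraries thus also had the largest ratios inside the ZD7288 library, followed by Eif1ad at 1.39 and Eef1e1 at 1.27. These 6 of 55 members were called higher, against 8.56% of all genes, and none was lower, against 4.52% of all genes.

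The other members spread on both sides of 1 across those cells, from 0.811 for Eif4enif1 to 1.24 for Eif4g2, with Eif1 at 1.22 and Eif2s1 at 1.21. Eif4g1 had a ratio of 0.954 (0.847 to 1.08), Eef2 of 1.00 (0.987 to 1.02) and Eif3f of 0.935 (0.909 to 0.963), and the median over members was 0.09 on the log2 scale, against 0.05 over all genes. Even in the ZD7288 cells with the fewest ATF4 target UMIs, Eif4ebp1 was at 541 CPM, against 242.6 CPM in the vehicle library. Cell-cycle UMIs averaged 16.4 in the cells with the most ATF4 target UMIs and 16.2 in those with the fewest. Median mitochondrial shares were 4.33% in the cells with the most and 5.44% in those with the fewest, and median depths 24004 UMIs in the cells with the most and 22501 UMIs in those with the fewest. The part of mitochondrial share in these ratios was not tested.

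**Figure D5:**
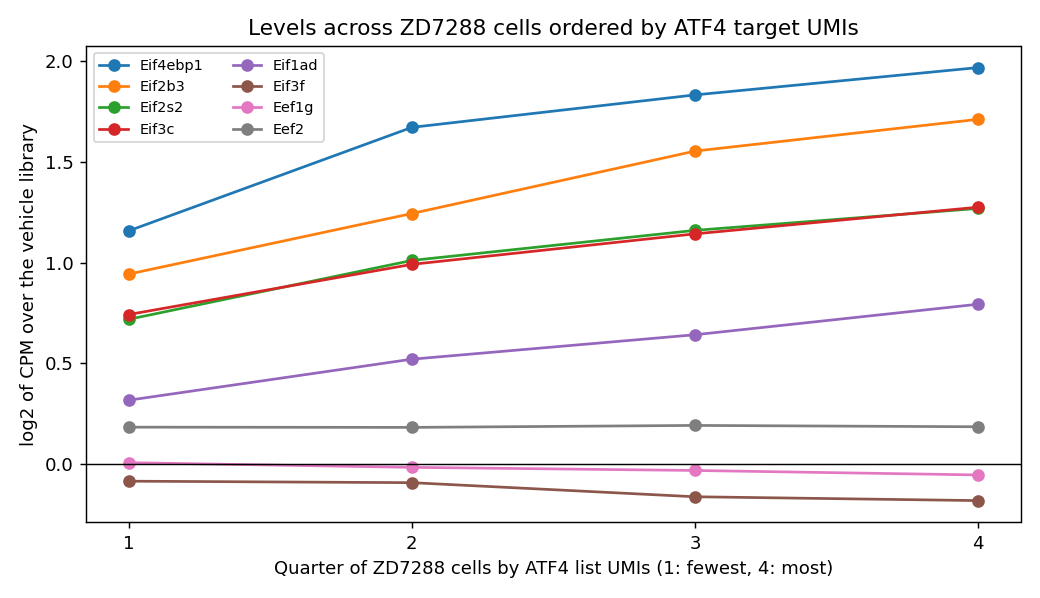
Log2 of the CPM of selected members in ZD7288 cells over their CPM in the whole vehicle library, for 4 classes of ZD7288 cells from the fewest to the most UMIs of 23 ATF4 target genes. Eif4ebp1 had 541, 772, 863 and 948 CPM across the classes, while Eef2 stays level, with 2148 CPM in the class with the fewest and 2151 CPM in that with the most.

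The partners of these factors were described from lists chosen with earlier results of the data known. Among 12 measured genes of the eIF2 phosphorylation cycle, 5 were higher and 2 lower, where 26.0% of all genes were higher and 16.0% lower. Atf4, whose mRNA is translated when eIF2 is phosphorylated, had 313 CPM with ZD7288 and 139 CPM with vehicle, a ratio of 2.25 (2.15 to 2.35). Ppp1r15a, the phosphatase subunit that removes the phosphate from eIF2, had 29.7 CPM with ZD7288 and 10.9 CPM with vehicle, a ratio of 2.72 (2.33 to 3.20). The stress gene Ddit3 had 51.1 CPM with ZD7288 and 16.3 CPM with vehicle, and Trib3, a pseudokinase gene induced by ATF4, had 66.0 CPM with ZD7288 and 0.705 CPM with vehicle. The 2 lower genes, named after their values were seen, were Dnajc3 with a ratio of 0.707 (0.654 to 0.765) and Gcn1 with 0.741 (0.668 to 0.823). The list median was 0.11.

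Among 22 measured genes of mTORC1 and eIF4E-binding protein signalling, 7 were higher and 4 lower, shares near the 26.0% and 16.0% of all genes, and the median was 0.05 on the log2 scale. Sesn2, which restrains mTORC1 when leucine is scarce, had 119 CPM with ZD7288 and 19.3 CPM with vehicle, a ratio of 6.17 (5.50 to 6.95). Ddit4, another inhibitor of mTORC1, had 54.6 CPM with ZD7288 and 19.7 CPM with vehicle. Grb10, an adaptor that mTORC1 phosphorylates, had 28.0 CPM with ZD7288 and 10.6 CPM with vehicle, and Rraga, a GTPase that brings mTORC1 to the lysosome, had 116 CPM with ZD7288 and 70.4 CPM with vehicle. The 4 lower genes, named after their values were seen, were Mknk2 with a ratio of 0.619, Mtor, the kinase itself, with 0.684, Lamtor1, a lysosomal anchor of the complex, with 0.764, and Rps6kb2 with 0.789. Further inhibitors of mTORC1 were also named after their values were seen. Sesn3 had a ratio of 1.60, Nprl3 of 1.33, Akt1s1 of 1.15 and Nprl2 of 1.07. Tsc2 had a ratio of 0.840 with an interval of 0.709 to 1.0004 that spanned 1, and it was not called lower. With 7 genes higher and 4 lower, the list as a whole had no common direction.

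Genes that work beside the initiation factors differed little, with 3 of 22 higher, 2 lower and a median of 0.04, against 26.0% higher and 16.0% lower over all genes. Pabpc1, the poly(A)-binding protein that eIF4G contacts, had 378 CPM with ZD7288 and 202 CPM with vehicle, a ratio of 1.87 (1.80 to 1.94). The helicase gene Ddx3x had 76.8 CPM with ZD7288 and 117 CPM with vehicle, 1.52-fold lower (1.44 to 1.60). Of 9 termination and recycling genes, 2 were higher and 1 lower, shares near or under the 26.0% and 16.0% of all genes, with Etf1, the release factor, at 204 CPM with ZD7288 and 133 CPM with vehicle. Of 9 mitochondrial translation factor genes the counts were the same, 2 higher and 1 lower. The mitochondrial elongation factor gene Tsfm had 19.19 CPM with ZD7288 and 13.003 CPM with vehicle, and Mtrf1l, a mitochondrial release factor gene counted in both lists, had 9.61 CPM with ZD7288 and 14.3 CPM with vehicle.

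The width of the shift depended on which cells and which total were used. With cells of at least 5000 UMIs and at most 5% mitochondrial UMIs, which left 1640 ZD7288 and 159 vehicle cells, 16 members were higher and 3 lower, against 17.9% and 17.8% of all genes. The ratio was then 1.15 for Eif2s1, 1.10 for Eif4e and 0.965 for Eif4a3, all too close to 1 to be called higher, and 1.27 for Eif4a1. It was 3.42 for Eif4ebp1, 2.01 for Eif2b3, 1.82 for Eif2s2 and 1.70 for Eif3c in those cells. The median over members was 0.15 there and that over all genes -0.01. With totals that left out mitochondrial and ribosomal protein genes, 20 members were higher and 4 lower, against 20.4% and 20.3% of all genes. Called higher under all 9 other settings were 12 members, Eif1ad, Eif2s2, Eif2b3, Eif3c, Eif3d, Eif3g, Eif4a1, Eif4g1, Eif4ebp1, Eef1d, Eef1e1 and Eef2k, and lower under all 9 was Eif4enif1. The same count is not given over all genes, so how common such constancy was among them is left unknown. Nor were the 9 settings separate checks, since most reused the same cells and UMIs. The rescalings by TMM and by the median gene ratio had divisors of 1.00011 and 0.9958, and both left 25 members higher and 3 lower. RefSeq lists pseudogenes named after 31 of the 56 members, most for Eef1a1 with 20 and Eef1g with 16. Reads could be split between such copies and their parent genes, so these levels are uncertain.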

How the data were processed

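Single-cell RNA libraries were made with the 10x Chromium 3′ kit, version 2, per the labels' protocols. The deposited matrix held raw UMI counts per gene and barcode, made by the authors with Cell Ranger per the submitters' processing notes, software version 3.0.2 per the file headers. For the genome build and annotation used in counting, the label texts used here name none. The number ending each barcode was matched to the number that opens each sample title. The match has no second source, and were it reversed every ratio would turn round. The treated label spells the compound ZD2788. Members and lists were chosen with earlier results of these data known, and 1 gene is not reported here.

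Cells with at least 1000 UMIs, at least 500 genes and at most 10% mitochondrial UMIs were kept, counts were summed per library and scaled to 1000000 (CPM). CPM had exact Poisson and ratios exact Clopper-Pearson 95% intervals, tested on simulated data. Doublets were not removed. With 1 library per condition no test was made. All members of at least 10 CPM could be named, and of each other list up to 4 genes with the largest differences past the threshold, plus Atf4. Further list and marker genes were named after their values were seen. Promoters and pseudogene names came from RefSeq (GRCr8). Other settings were scaling by edgeR's TMM (4.0.16) and DESeq2's median ratio (1.42.0), other totals, cell filters, thinning, floors and cell weights. Python 3.11.15, numpy 2.4.6, scipy 1.17.1, pandas 2.3.3 and R 4.3.3 were used.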

Additional observations from a re-analysis of the deposited data

How the results depend on the processing

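Over the settings tried, the member median stayed 0.15 to 0.23 log2 above that of all genes. Scaling by TMM or the median gene ratio and all deposited barcodes changed no direction. The stricter cell filter (at least 5000 UMIs, at most 5% mitochondrial) gave 16 members higher and member medians of 0.15 over all members, 0.25 for eIF1 and eIF1A, 0.26 for eIF2, 0.11 for eIF2B, 0.20 for eIF3 and -0.051 for eIF4, with Eif4a3 at -0.051. Totals without mitochondrial and ribosomal protein genes gave medians of 0.27 for eIF1 and eIF1A, 0.36 for eIF2, 0.25 for eIF3, 0.0047 for eIF4 and 0.11 for elongation, with 1 member lower at 1.5-fold. Cells thinned to 2000 UMIs gave 11 members higher and 1 lower at 1.5-fold, medians of 0.19 for eIF1 and eIF1A, 0.11 for eIF4 and 0.31 for eIF5, eIF5A, eIF5B and eIF6, and Eif5a2 at 0.49. Cells thinned to 5000 UMIs gave 1 member lower at 1.5-fold, medians of 0.48 for eIF2B and 0.14 for elongation, and Eif4e3 at 0.028. Equal weight for every cell gave 0.37 for eIF2 and 0.16 for elongation, and leaving out the 5% of cells with the most UMIs gave 0.16 for elongation. A floor of 20 CPM gave 1 member lower and medians of 0.15 for eIF4 and 0.82 for the eIF4E-binding genes. A fold rule of 2 gave 4 members higher. For the 1.5-fold counts and the floor of 20 CPM, the shares of all genes under the same settings are not given here. Those counts can therefore not be set against a background. The causes were not tested. No paired analysis was possible because each condition had 1 library. Eif4e3 and Eif5a2 kept their direction in the other 8 settings each.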
